A study of Homo sapiens with 12 samples.

Results

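The genes described here are the translation initiation factors (EIF) and elongation factors (EEF) of human cells, with the enzymes that modify elongation factors. Members were taken by symbol as every listed gene whose name starts with EIF or EEF followed by a number. The kinases named EIF2AK, the genes EIF4A3 and EIF1AY, pseudogenes and symbols with a hyphen were left out. Of 130 such symbols 70 were left out, 60 of them as pseudogenes, and 60 members remained among 20293 genes listed in either line. All 60 were listed for Huh7 and 59 for HepG2, EIF4E3 being listed for Huh7 alone, and all listed members passed the filter on low counts. The members fall into 8 role groups of 3 to 13 genes.

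RNA was sequenced from HepG2 and Huh7, both human hepatoma lines, after transfection with UBL5 siRNA or with Ctrl-siRNA, a nontargeting control, and the labels give 52 h for every sample. The study also states another time for these RNA samples, and which of them holds was not settled. Each line gave 3 libraries with UBL5 siRNA and 3 with Ctrl-siRNA, 12 in all. A single siRNA product against UBL5 was named for these transfections, so an effect of that sequence on other transcripts and the loss of UBL5 cannot be told apart. Whether replicate libraries came from separate transfections is not stated, and p-values therefore measure the spread between libraries, which may be technical.

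Initiation factors place the initiator tRNA and the small ribosomal subunit on an mRNA and move them to the start codon. The eIF4 group binds the cap and unwinds the leader, eIF3 is the scaffold on the small subunit, eIF2 carries the initiator tRNA, and eIF2B recharges eIF2 with GTP. Elongation factors then deliver each aminoacyl tRNA (eEF1) and move the ribosome along the mRNA (eEF2). Hepatocytes are known for a high output of secreted protein, and eIF2 is the substrate through which ER stress kinases lower initiation.

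Many mRNAs of the translation machinery begin with a 5′ terminal oligopyrimidine tract, a C followed by further pyrimidines, through which mTOR and LARP1 are known to control their translation. The first bases of all 12 members with such a start are printed because this feature was not used to choose the members. Each stretch runs from 10 bases before the annotated first base to 15 bases from it, on the strand of the gene (RefSeq, GRCh38.p14), and capitals mark the unbroken run of C and T that starts at that base.
EEF2, chromosome 19, minus strand: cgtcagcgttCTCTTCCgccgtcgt
EEF1A1, chromosome 6, minus strand: cgtgaacgttCTTTTTCgcaacggg
EIF3F, chromosome 11, plus strand: cttccgcctcCTTCTTTCTCgacaa
EIF3D, chromosome 22, minus strand: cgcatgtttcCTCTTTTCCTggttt
EIF2A, chromosome 3, plus strand: cgagcggtttCTCTTTCCgggacaa
EIF4B, chromosome 12, plus strand: tcatccgggtCTTTTgcgttctctt
EIF2D, chromosome 1, minus strand: ccagccgggcCCTTTTCgcggccgg
EIF3K, chromosome 19, plus strand: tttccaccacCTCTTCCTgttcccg
EIF2S3, chromosome X, plus strand: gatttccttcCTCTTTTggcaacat
EIF2S3B, chromosome 12, plus strand: gactttcttcCTCTTTTggcaacat
EIF3M, chromosome 11, plus strand: gcccagttccCTTTTCCggtcggcg
EIF4A2, chromosome 3, plus strand: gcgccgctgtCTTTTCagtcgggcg
Such a start, a C and at least 4 more pyrimidines read on the strand of the gene, was found in 12 of the 47 members with a RefSeq promoter, or 25.5%. Over 15345 protein-coding promoters the share was 4.65%. A match describes the annotated start and is no measurement of where transcription began in these cells.

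The libraries held 19983681 to 29744471 counts. Replicate 3 of Ctrl-siRNA in HepG2 had 1773 listed genes at 0, against 159 to 233 in the remaining HepG2 libraries. Levels are given as counts scaled to library size (CPM), within each line unless stated. In HepG2, UBL5 measured 6.88, 4.31 and 2.80 CPM with UBL5 siRNA and 60.4, 55.5 and 58.7 CPM with Ctrl-siRNA. The Huh7 values of UBL5 were 6.45, 6.67 and 5.80 CPM with UBL5 siRNA, against 68.1, 70.8 and 67.1 CPM with Ctrl-siRNA. The groups did not overlap in either line, and UBL5 fell by 3.63 on the log2 scale in HepG2 (SE 0.26, adjusted p = 8.4e-05) and by 3.44 in Huh7 (SE 0.07, adjusted p = 2.9e-10). All 8 hepatocyte markers were listed in both lines, with summed levels of 40366 to 45989 CPM with UBL5 siRNA and 40994 to 43453 CPM with Ctrl-siRNA in HepG2, and of 25629 to 26152 CPM and 24774 to 25774 CPM in Huh7. Of 6 leukocyte markers 2 (CD14 and LYZ) were listed, and their summed level was 972 to 1217 CPM with UBL5 siRNA and 1684 to 2214 CPM with Ctrl-siRNA in HepG2, and 328 to 345 CPM and 578 to 593 CPM in Huh7. That sum is nearly all LYZ, which fell by 0.75 on the log2 scale in HepG2 and by 0.74 in Huh7, whereas CD14 was higher, with log2 fold changes of 4.72 and 1.51 and 4.34 to 7.41 CPM in the UBL5 siRNA libraries of both lines. The summed fibroblast or stellate markers were also higher without overlap. They stood at 45.9 to 57.0 CPM with UBL5 siRNA and 38.7 to 45.0 CPM with Ctrl-siRNA in HepG2 (5 of 5 listed). The Huh7 sums were 8.79 to 16.7 CPM and 4.93 to 6.81 CPM (4 of 5 listed). COL1A1 passed the test upward in each line. PDGFRB passed it upward in Huh7 but had a log2 fold change of -0.40 in HepG2, without passing. ACTA2 in HepG2 and COL1A2 in Huh7 were not called. Of the endothelial markers in HepG2, CDH5 was higher (log2 fold change 5.06) and PECAM1 lower (-1.01). Their summed levels overlapped, at 2.87 to 6.15 CPM with UBL5 siRNA and 3.75 to 6.51 CPM with Ctrl-siRNA. The part of these shifts in the results was not tested. Every sample was a culture of a hepatoma line, and the leukocyte markers PTPRC, CD3E, CD68 and MS4A1 were listed in neither line. Bulk RNA does not show which cells the RNA of a marker came from.

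The first question was which translation factors changed with UBL5 siRNA within each line. In HepG2, 15 of the 59 members were higher with UBL5 siRNA at an adjusted p under 0.05, which is 25.4%, against 16.5% of the 15755 genes tested, and 9 were lower, which is 15.3% against 20.1%. Among protein-coding genes with a mean of at least 10 CPM, the shares called were 22.6% higher and 27.3% lower. The median log2 fold change of the members was 0.12, beside 0.01 for all genes tested. Without the Ctrl-siRNA replicate 3 the counts were 15 higher and 10 lower, but without the Ctrl-siRNA replicate 1 or replicate 2 of HepG2 only 9 were higher. The shares of all genes called in those fits are not given, so these counts may follow a change in calls over all genes. Of the 15, EEF2, EIF3D, EIF3F, EIF3L, EIF4A1, EIF4E2, EIF5A and EIF5B were called whichever library was left out. Of the 9 lower, 6 were called whichever library was left out, and EEF2KMT, EIF3K and EIF5 were not.

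In Huh7, 34 of the 60 members were higher, which is 56.7%, against 34.9% of the 16965 genes tested, and 12 were lower, which is 20% against 36.4%. Leaving out 1 library ended the calls of EIF3J, EIF4G2 and EIF6 among those higher and of none of the 12 lower. Among protein-coding genes with a mean of at least 10 CPM, 42.9% were higher and 36.3% lower. The median of the members was 0.20 on the log2 scale and that of all genes -0.01. The biological coefficient of variation was 0.189 in HepG2 and 0.0663 in Huh7. Members took 1.55% to 1.61% of all counts with UBL5 siRNA and 1.43% to 1.45% with Ctrl-siRNA in HepG2, and 1.44% to 1.46% and 1.26% to 1.28% in Huh7. Without EEF2, the member with the most counts, the shares were 1.07% to 1.10% and 1.03% to 1.06% in HepG2, and 1.17% to 1.21% and 1.04% to 1.07% in Huh7.

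**Figure D1:**
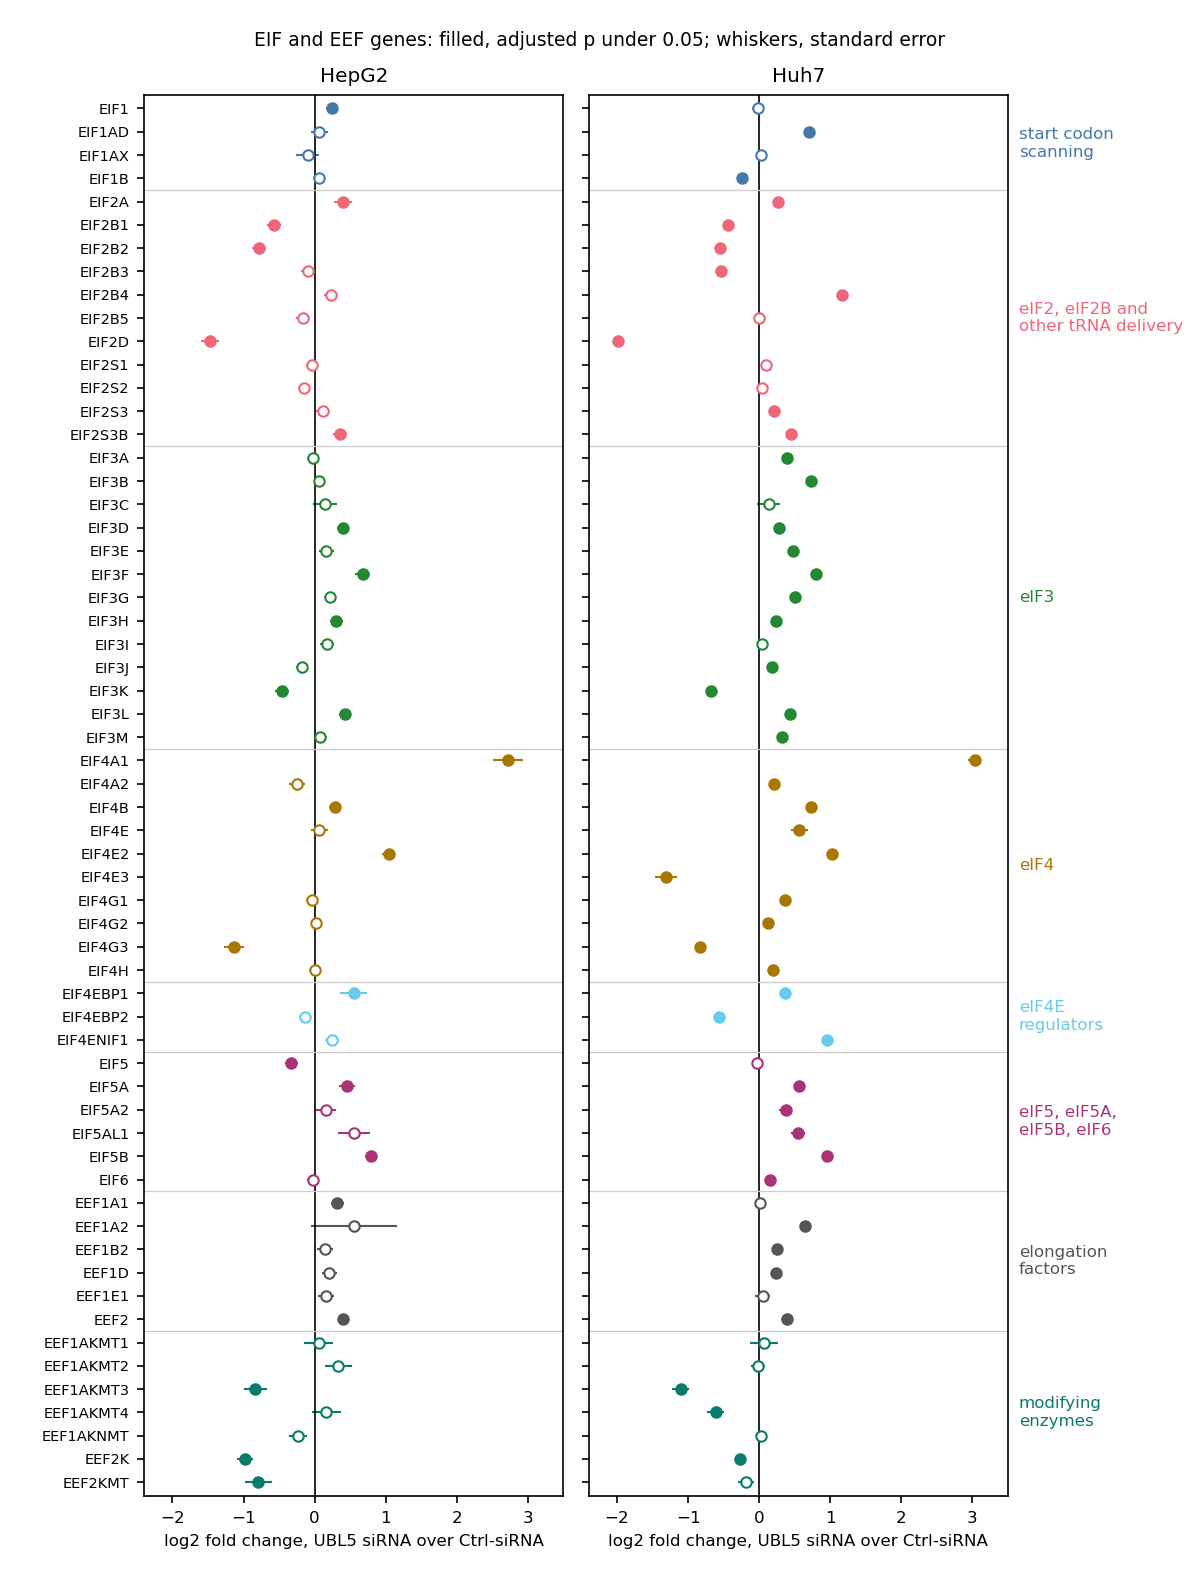
The plot gives the log2 fold change (UBL5 siRNA over Ctrl-siRNA) of each member in HepG2 (left) and Huh7 (right) by role group, with the standard error as whiskers and filled points for an adjusted p under 0.05. EIF4A1 is the highest point in both lines (2.73 and 3.03) and EIF2D the lowest (-1.47 and -1.99), and EIF4E3 has a point in Huh7 alone.

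Both lines could be compared for 59 members, and 13 of them rose in each (22%, against 14.5% of all genes tested in both), 7 fell in each (11.9% against 16.4%), none was called in opposite directions (2.27% of all genes) and 10 were called in neither (16.9% against 23.3%). The 13 were EEF2, EIF2A, EIF2S3B, EIF3D, EIF3F, EIF3H, EIF3L, EIF4A1, EIF4B, EIF4E2, EIF4EBP1, EIF5A and EIF5B. The 7 were EEF1AKMT3, EEF2K, EIF2B1, EIF2B2, EIF2D, EIF3K and EIF4G3. A further 25 members were called in Huh7 alone and 4 in HepG2 alone, which does not show that their responses differed. Across the members the fold changes of the lines, which share no libraries, had a Pearson correlation of 0.87 and a Spearman correlation of 0.71 (n = 59 genes, which are not independent replicates). Without EIF4A1, the highest point in both lines, the correlations were 0.79 and 0.70 (n = 58).

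Among the 4 genes grouped under start codon scanning, 1 was called higher in HepG2 (25%, against 16.5% of all genes), and in Huh7 1 was higher and 1 lower (25% each, against 34.9% and 36.4%). In Huh7 the higher gene was EIF1AD and the lower EIF1B, and EIF1 and EIF1AX were not called. The place of EIF1AD in this group does not show that it acts in scanning. Levels of EIF1 in HepG2 were 347, 396 and 416 CPM with UBL5 siRNA, against 330, 318 and 328 CPM with Ctrl-siRNA. Those in Huh7 were 275, 284 and 313 CPM with UBL5 siRNA and 259, 298 and 331 CPM with Ctrl-siRNA. EIF1, which guards the fidelity of start codon choice, was higher in HepG2 by a small margin, with a log2 fold change of 0.25 ± 0.09 (SE, adjusted p = 0.0497), and its Huh7 groups overlapped. HepG2 cells with UBL5 siRNA had 43.96, 46.3 and 48.5 CPM of EIF1AD, against 39.9, 40.9 and 51.6 CPM in those with Ctrl-siRNA. Huh7 cells had 65.1, 61.1 and 57.4 CPM with UBL5 siRNA, against 40.4, 34.3 and 37.6 CPM with Ctrl-siRNA. In Huh7 every UBL5 siRNA library of EIF1AD was above every control library, with a log2 fold change of 0.71 ± 0.07 (SE, adjusted p = 4.4e-06), whereas in HepG2 the groups overlapped. EIF1B, a close relative of EIF1, fell in Huh7 with a log2 fold change of -0.25 ± 0.06 (SE, adjusted p = 0.0025) and had a log2 fold change of 0.06 ± 0.09 (SE, adjusted p = 0.6) in HepG2. EIF1AX passed the test in neither line.

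The tRNA delivery group held the member that fell most in each line. EIF2D (ENSG00000143486, chr1:206571292-206612465, minus strand, 15 exons in the canonical transcript) encodes a factor that binds initiator tRNA without GTP and acts in ribosome recycling. The libraries of HepG2 held 36.9, 27.4 and 29.5 CPM of EIF2D with UBL5 siRNA and 84.9, 90.7 and 83.9 CPM with Ctrl-siRNA. For Huh7, EIF2D stood at 27.6, 27.9 and 26.7 CPM with UBL5 siRNA and 106, 109 and 112 CPM with Ctrl-siRNA. The groups lay far apart in both lines, and the fitted level with UBL5 siRNA was 0.362 of the control level in HepG2 and 0.252 in Huh7. EIF2D had a log2 fold change of -1.47 ± 0.13 (SE, adjusted p = 0.00014) in HepG2 and of -1.99 ± 0.05 (SE, adjusted p = 4.1e-10) in Huh7. Of its annotated exon bases 75.1% lie outside the canonical transcript, and its start, printed above, holds a pyrimidine run.

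The 4 genes of eIF2 itself had log2 fold changes between -0.15 and 0.44. EIF2S1, whose alpha subunit carries the phosphorylation site of the stress kinases, had a log2 fold change of -0.04 ± 0.09 (SE, adjusted p = 0.73) in HepG2 and of 0.09 ± 0.06 (SE, adjusted p = 0.17) in Huh7. EIF2S2, the beta subunit, did not pass the test in either line. EIF2S3, the gamma subunit, was higher in Huh7 (log2 fold change 0.20 ± 0.04 SE, adjusted p = 0.001), and its copy EIF2S3B rose in each line, by 0.36 on the log2 scale in HepG2 and by 0.44 in Huh7. Reads of EIF2S3 and EIF2S3B may be shared, since the genes are near copies. EIF2A, which can bind initiator tRNA apart from eIF2, rose in both lines by 0.40 and 0.27 on the log2 scale.

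The 5 subunits of eIF2B did not move as a block. EIF2B1 (alpha) and EIF2B2 (beta) fell in both lines. EIF2B2 had 30.7, 30.2 and 30.2 CPM with UBL5 siRNA in HepG2, against 48.02, 52.4 and 55.8 CPM with Ctrl-siRNA. In Huh7 it had 30.7, 30.4 and 28.3 CPM with UBL5 siRNA and 41.9, 45.8 and 43.7 CPM with Ctrl-siRNA. The groups of EIF2B2 did not overlap in either line, and it fell by 0.78 on the log2 scale in HepG2 (SE 0.10, adjusted p = 0.0006) and by 0.56 in Huh7 (SE 0.06, adjusted p = 1.1e-05). EIF2B1 fell by 0.57 and 0.44. EIF2B3 (gamma) fell in Huh7 by 0.54 and had a log2 fold change of -0.10 in HepG2, where it did not pass the test. EIF2B5, the catalytic epsilon subunit, passed it in neither line.

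EIF2B4, the delta subunit (ENSG00000115211, chr2:27364352-27370338, minus strand), went the other way. In HepG2, EIF2B4 measured 94.5, 98.9 and 99.97 CPM with UBL5 siRNA and 81.6, 92.1 and 77.5 CPM with Ctrl-siRNA. The Huh7 values of EIF2B4 were 87.6, 89.3 and 89.5 CPM with UBL5 siRNA, against 40.4, 36.3 and 41.6 CPM with Ctrl-siRNA. In Huh7 the UBL5 siRNA libraries were all above the controls, and in HepG2 they were also above them by a narrow gap. EIF2B4 had a log2 fold change of 0.22 ± 0.09 (SE, adjusted p = 0.092) in HepG2, where it did not pass the test, and a log2 fold change of 1.17 ± 0.06 (SE, adjusted p = 1.6e-08) in Huh7, and the difference between the lines (HepG2 minus Huh7) was -0.92 ± 0.11 (SE, adjusted p = 1e-04). Of its exon bases 68.3% lie outside the canonical transcript.

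In eIF3, the scaffold of 13 listed subunits, 4 were higher and 1 lower in HepG2 (30.8% and 7.69%, against 16.5% and 20.1% of all genes), and 10 were higher and 1 lower in Huh7 (76.9% and 7.69%, against 34.9% and 36.4%). Levels of EIF3F in HepG2 were 78.4, 71.3 and 81.4 CPM with UBL5 siRNA, against 51.1, 50.1 and 43.5 CPM with Ctrl-siRNA. Those in Huh7 were 87.9, 85.8 and 89.3 CPM with UBL5 siRNA and 51.2, 49.7 and 50.4 CPM with Ctrl-siRNA. EIF3F did not overlap between groups in either line, with a log2 fold change of 0.68 ± 0.10 (SE, adjusted p = 0.0013) in HepG2 and of 0.80 ± 0.05 (SE, adjusted p = 5.6e-08) in Huh7. EIF3F has a listed pseudogene, whose counts summed to 2494 with UBL5 siRNA and 1860 with Ctrl-siRNA in HepG2 and to 2165 and 1340 in Huh7. EIF3D, a subunit that can bind the cap, EIF3H and EIF3L were higher in both lines by 0.23 to 0.43 on the log2 scale. EIF3L shares 41.1% of its exon bases with another gene.

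EIF3K was the subunit that fell. HepG2 cells with UBL5 siRNA had 108, 94.7 and 104 CPM of EIF3K, against 129, 138 and 153 CPM in those with Ctrl-siRNA. Huh7 cells had 96.9, 89.2 and 86.2 CPM with UBL5 siRNA, against 151, 148 and 138 CPM with Ctrl-siRNA. The groups did not overlap in either line, and EIF3K fell by 0.46 on the log2 scale in HepG2 (SE 0.10, adjusted p = 0.0064) and by 0.68 in Huh7 (SE 0.06, adjusted p = 6.8e-07). The HepG2 call of EIF3K was lost when 1 library was left out. EIF3K and EIF3L are known as the partner subunits at the edge of the complex, and their fold changes had opposite signs in both lines. The libraries of HepG2 held 415, 424 and 392 CPM of EIF3B with UBL5 siRNA and 399, 399 and 385 CPM with Ctrl-siRNA. For Huh7, EIF3B stood at 1225, 1220 and 1198 CPM with UBL5 siRNA and 760, 724 and 724 CPM with Ctrl-siRNA. EIF3B, a core subunit, did not pass the test in HepG2 (log2 fold change 0.06 ± 0.07 SE, adjusted p = 0.57) and rose in Huh7 (log2 fold change 0.72 ± 0.04 SE, adjusted p = 4.5e-08). EIF3J, a loosely bound subunit, had a log2 fold change of -0.18 in HepG2, without passing the test, and of 0.17 in Huh7, where it did. EIF3C and EIF3I were called in neither line. In Huh7 EIF3C had 7.14, 7.67 and 5.99 CPM with UBL5 siRNA and 7.89, 5.84 and 5.01 CPM with Ctrl-siRNA. These levels lie below those of every other eIF3 subunit there, and the missing call does not show that its mRNA was unchanged. Whether reads of EIF3C are shared with a locus outside the lists was not tested.

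**Figure D2:**
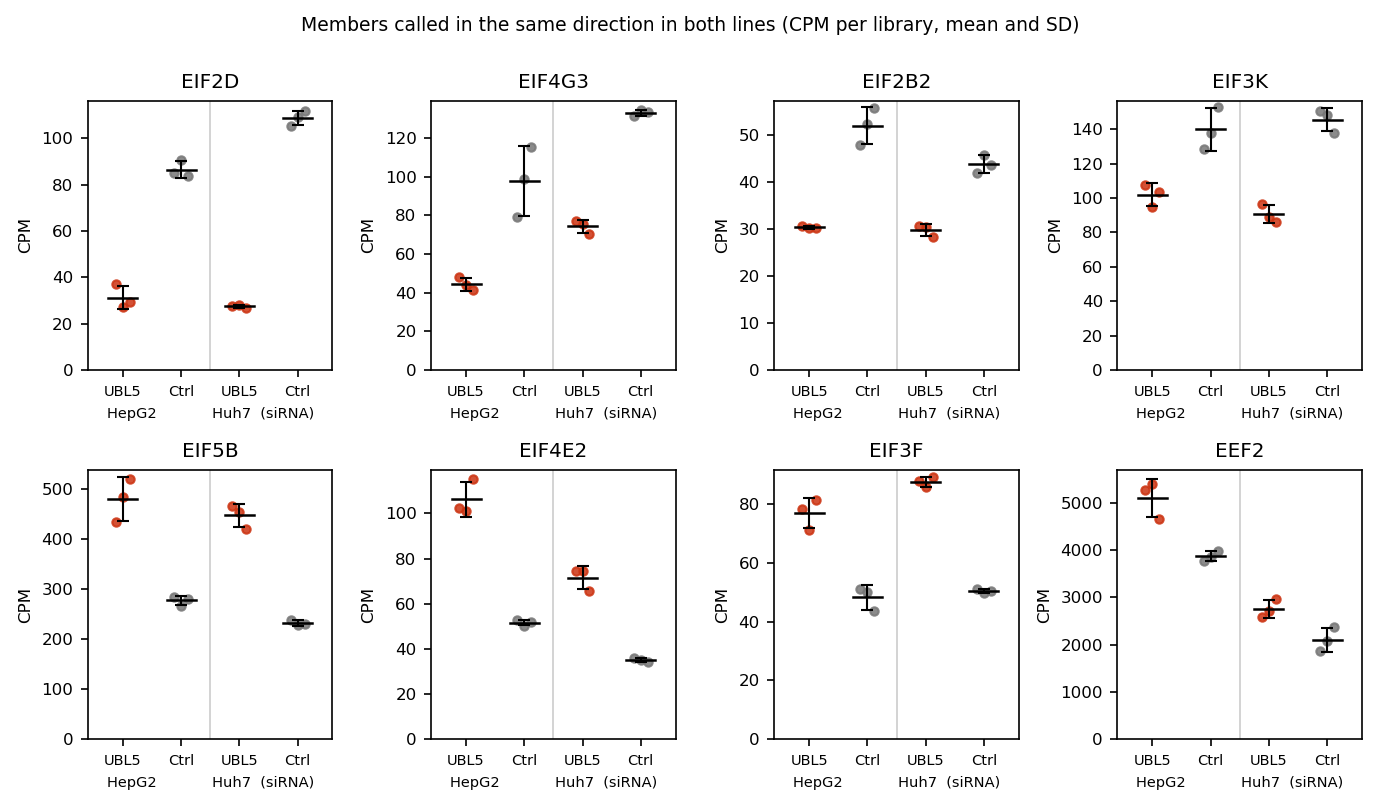
The plot gives CPM (scaled within each line) of 8 members per library, with UBL5 siRNA in red left of Ctrl-siRNA in grey for each line, and the mean and SD in black (n = 3). In the upper row (EIF2D, EIF4G3, EIF2B2, EIF3K) the UBL5 siRNA libraries lie below the controls and in the lower row (EIF5B, EIF4E2, EIF3F, EEF2) above them, without overlap in either line.

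Among the eIF4 genes, the row of EIF4A1, the DEAD-box helicase that unwinds leaders (ENSG00000161960, chr17:7572824-7579006, plus strand), had the highest fold change of all members. EIF4A1 had 21.1, 32.5 and 36.2 CPM with UBL5 siRNA in HepG2, against 4.60, 4.35 and 4.59 CPM with Ctrl-siRNA. In Huh7 it had 53.4, 57.8 and 61.5 CPM with UBL5 siRNA and 6.50, 8.16 and 6.52 CPM with Ctrl-siRNA. The groups were far apart in both lines, at a log2 fold change of 2.73 ± 0.21 (SE, adjusted p = 0.0001) in HepG2 and of 3.03 ± 0.10 (SE, adjusted p = 8e-10) in Huh7. In raw counts the row held 478, 784 and 698 with UBL5 siRNA and 120, 104 and 138 with Ctrl-siRNA in HepG2, and 1084, 1161 and 1324 against 183, 183 and 130 in Huh7. These are small counts for a helicase that dividing cells are known to make in abundance. In GENCODE 44 the gene shares 47.4% of its exon bases on the same strand with other genes, the readthrough gene SENP3-EIF4A1 among them, and all of the 2733 exon bases it has alone lie outside its canonical transcript of 11 exons. How reads over shared bases were assigned is not given in the sources used here, so the row cannot be read as the level of the EIF4A1 mRNA.

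The 7 pseudogenes of EIF4A1 in the lists held more counts than the gene, 10511 with UBL5 siRNA and 8862 with Ctrl-siRNA in HepG2, and 12507 and 9437 in Huh7, each summed over 3 libraries. Of the 7, 3 passed the test upward in HepG2 and 6 did in Huh7, and the median log2 fold changes were 0.53 and 0.61. The highest log2 fold change of a pseudogene row was 0.85 in HepG2 and 0.88 in Huh7. In HepG2, EIF4A2 measured 330, 343 and 435 CPM with UBL5 siRNA and 439, 410 and 465 CPM with Ctrl-siRNA. The Huh7 values of EIF4A2 were 475, 492 and 547 CPM with UBL5 siRNA, against 436, 427 and 448 CPM with Ctrl-siRNA. The groups of EIF4A2, the paralog, overlapped in HepG2, at a log2 fold change of -0.25 ± 0.11 (SE, adjusted p = 0.12), and EIF4A2 rose in Huh7 without overlap, at a log2 fold change of 0.21 ± 0.06 (SE, adjusted p = 0.0053). In the paired fit of HepG2, described with the processing, EIF4A2 was lower at an adjusted p of 0.031.

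**Figure D3:**
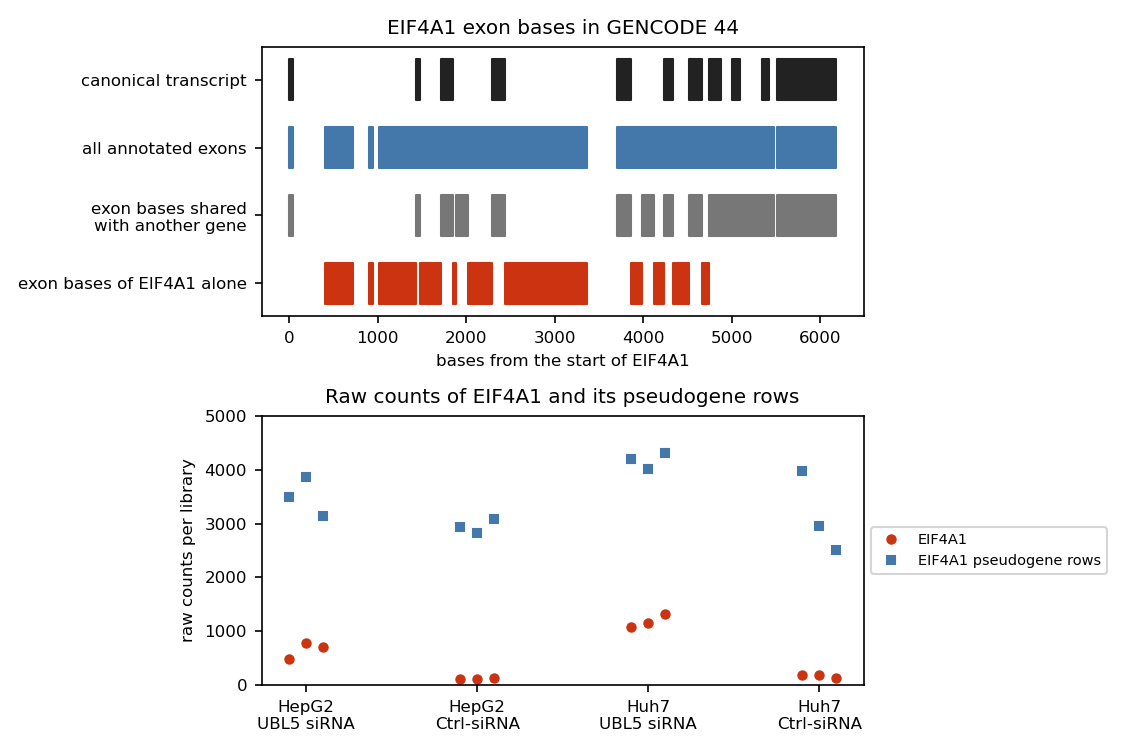
The upper panel maps exon bases of EIF4A1 by distance from the start of the gene, and the bases that belong to EIF4A1 alone (red) all lie between the exons of its canonical transcript (black). The lower panel gives raw counts per library of the EIF4A1 row (red) and of its 7 pseudogene rows summed (blue), with UBL5 siRNA left of Ctrl-siRNA in each line, and the red points are higher with UBL5 siRNA in both lines.

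EIF4G3, a scaffold protein of the cap complex (eIF4GII, ENSG00000075151, chr1:20806292-21177285, minus strand, 37 exons) fell in both lines. Levels of EIF4G3 in HepG2 were 48.02, 43.9 and 41.4 CPM with UBL5 siRNA, against 79.3, 98.98 and 115 CPM with Ctrl-siRNA. Those in Huh7 were 76.96, 75.7 and 70.5 CPM with UBL5 siRNA and 132, 135 and 133 CPM with Ctrl-siRNA. Its groups did not overlap, and it fell by 1.14 on the log2 scale in HepG2 (SE 0.14, adjusted p = 0.00052) and by 0.84 in Huh7 (SE 0.05, adjusted p = 3.9e-08). EIF4G1, the main scaffold, had a log2 fold change of -0.04 ± 0.09 (SE, adjusted p = 0.76) in HepG2 and rose in Huh7 (log2 fold change 0.36 ± 0.05 SE, adjusted p = 5e-05). EIF4G2, which lacks the eIF4E binding site, had a log2 fold change of 0.02 in HepG2 and of 0.13 in Huh7, where it passed the test.

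EIF4E2 (4EHP) binds the cap without recruiting eIF4G and is known as a repressor of translation. HepG2 cells with UBL5 siRNA had 103, 101 and 115 CPM of EIF4E2, against 52.6, 50.2 and 51.9 CPM in those with Ctrl-siRNA. Huh7 cells had 74.4, 74.4 and 65.7 CPM with UBL5 siRNA, against 35.96, 34.9 and 33.99 CPM with Ctrl-siRNA. It was higher in both lines without overlap, with a log2 fold change of 1.04 ± 0.09 (SE, adjusted p = 0.00014) in HepG2 and of 1.03 ± 0.06 (SE, adjusted p = 6.8e-08) in Huh7. Of its exon bases 91.6% lie outside the canonical transcript. EIF4E, the main cap-binding protein, had a log2 fold change of 0.07 in HepG2 and rose by 0.56 in Huh7. EIF4E3, listed in Huh7 alone, had 1.87, 1.59 and 1.86 CPM with UBL5 siRNA, against 4.23, 4.81 and 4.26 CPM with Ctrl-siRNA, and fell by 1.32 on the log2 scale.

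EIF4B and EIF4H stimulate the helicase. The libraries of HepG2 held 311, 279 and 296 CPM of EIF4B with UBL5 siRNA and 249, 229 and 249 CPM with Ctrl-siRNA. For Huh7, EIF4B stood at 346, 346 and 354 CPM with UBL5 siRNA and 206, 211 and 213 CPM with Ctrl-siRNA. EIF4B was higher without overlap in both lines, with a log2 fold change of 0.29 ± 0.08 (SE, adjusted p = 0.021) in HepG2 and of 0.73 ± 0.04 (SE, adjusted p = 3.1e-08) in Huh7. EIF4H rose in Huh7 by 0.19 on the log2 scale and had a log2 fold change of 0.01 in HepG2.

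The 3 regulators of eIF4E each had a pattern of their own. EIF4EBP1 had 74.2, 79.6 and 66.4 CPM with UBL5 siRNA in HepG2, against 55.5, 60.2 and 34.9 CPM with Ctrl-siRNA. In Huh7 it had 152, 144 and 148 CPM with UBL5 siRNA and 97.5, 118 and 129 CPM with Ctrl-siRNA. EIF4EBP1, a repressor that mTOR inactivates, was higher in both lines, though in HepG2 by a small margin (log2 fold change 0.55 ± 0.19 SE, adjusted p = 0.0477) and with the control replicate 3 the lowest of its group. In HepG2, EIF4EBP2 measured 153, 146 and 145 CPM with UBL5 siRNA and 161, 161 and 166 CPM with Ctrl-siRNA. The Huh7 values of EIF4EBP2 were 183, 175 and 179 CPM with UBL5 siRNA, against 265, 263 and 264 CPM with Ctrl-siRNA. Its paralog EIF4EBP2 fell in Huh7 (log2 fold change -0.56 ± 0.04 SE, adjusted p = 2.6e-07), and in HepG2 the UBL5 siRNA libraries were also all below the controls but did not pass the test (log2 fold change -0.14 ± 0.07 SE, adjusted p = 0.17). EIF4ENIF1 (4E-T) ties eIF4E to mRNA storage and decay in P-bodies. Levels of EIF4ENIF1 in HepG2 were 35.2, 38.8 and 39.1 CPM with UBL5 siRNA, against 31.9, 32.5 and 30.95 CPM with Ctrl-siRNA. Those in Huh7 were 54.1, 53.3 and 52.6 CPM with UBL5 siRNA and 29.2, 25.5 and 27.9 CPM with Ctrl-siRNA. It rose in Huh7 (log2 fold change 0.95 ± 0.07 SE, adjusted p = 1.4e-07), and its HepG2 libraries did not overlap but missed the threshold (log2 fold change 0.25 ± 0.10 SE, adjusted p = 0.083).

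Of the 6 genes of GTPase activation, subunit joining and eIF5A, 2 were higher and 1 lower in HepG2 (33.3% and 16.7%, against 16.5% and 20.1% of all genes), and 5 were higher in Huh7 (83.3% against 34.9%). EIF5B (ENSG00000158417, chr2:99337371-99401326, plus strand) encodes the GTPase that joins the ribosomal subunits. HepG2 cells with UBL5 siRNA had 433, 484 and 520 CPM of EIF5B, against 284, 266 and 280 CPM in those with Ctrl-siRNA. Huh7 cells had 466, 455 and 421 CPM with UBL5 siRNA, against 238, 228 and 229 CPM with Ctrl-siRNA. No control library reached the lowest UBL5 siRNA library in either line, and EIF5B had a log2 fold change of 0.79 ± 0.09 (SE, adjusted p = 0.00031) in HepG2 and of 0.95 ± 0.05 (SE, adjusted p = 1.8e-08) in Huh7. The libraries of HepG2 held 453, 443 and 432 CPM of EIF5A with UBL5 siRNA and 333, 372 and 264 CPM with Ctrl-siRNA. For Huh7, EIF5A stood at 518, 477 and 446 CPM with UBL5 siRNA and 313, 338 and 324 CPM with Ctrl-siRNA. EIF5A, which helps ribosomes through stalling sequences and carries hypusine, was higher in both lines, by 0.46 ± 0.12 and 0.56 ± 0.06 on the log2 scale (SE). EIF5AL1, an intronless near copy of EIF5A whose reads may be shared with it, rose in Huh7 by 0.55, and so did EIF5A2, by 0.37. EIF5, the GTPase activator of eIF2, was lower in HepG2 (log2 fold change -0.33 ± 0.09 SE, adjusted p = 0.023), a call likewise lost without 1 library, and had a log2 fold change of -0.02 in Huh7.

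Of the 6 elongation factors, 2 were called higher in HepG2 (33.3%, against 16.5% of all genes) and 4 in Huh7 (66.7% against 34.9%). EEF2 had 5282, 5404 and 4652 CPM with UBL5 siRNA in HepG2, against 3778, 3863 and 3978 CPM with Ctrl-siRNA. In Huh7 it had 2579, 2716 and 2963 CPM with UBL5 siRNA and 1858, 2076 and 2367 CPM with Ctrl-siRNA. EEF2, the translocase (ENSG00000167658, chr19:3976056-3985463, minus strand), was higher without overlap in both lines, with a log2 fold change of 0.40 ± 0.07 (SE, adjusted p = 0.0028) in HepG2 and of 0.39 ± 0.08 (SE, adjusted p = 0.001) in Huh7. In HepG2, EEF1A1 measured 754, 730 and 891 CPM with UBL5 siRNA and 639, 646 and 619 CPM with Ctrl-siRNA. The Huh7 values of EEF1A1 were 544, 526 and 545 CPM with UBL5 siRNA, against 527, 546 and 532 CPM with Ctrl-siRNA. EEF1A1, which delivers aminoacyl tRNA, was higher in HepG2 (log2 fold change 0.32 ± 0.09 SE, adjusted p = 0.021), and its Huh7 groups overlapped. The row of EEF1A1 is uncertain, since its 18 listed pseudogenes in HepG2 held 48384 counts with UBL5 siRNA and 49847 with Ctrl-siRNA, against 51898 and 50737 for the gene. Levels of EEF1A2 in HepG2 were 1.10, 0.994 and 1.87 CPM with UBL5 siRNA, against 1.11, 1.26 and 0.332 CPM with Ctrl-siRNA. Those in Huh7 were 54.05, 58.6 and 56.3 CPM with UBL5 siRNA and 32.6, 36.6 and 39.3 CPM with Ctrl-siRNA. EEF1A2, the form of muscle and neurons, rose in Huh7 (log2 fold change 0.64 ± 0.07 SE, adjusted p = 9.7e-06) and lay near 1 CPM in HepG2, where the groups overlapped. EEF1B2 and EEF1D, exchange factor subunits, rose in Huh7 by 0.26 and 0.23 on the log2 scale. EEF1E1, a scaffold protein of the aminoacyl tRNA synthetase complex, passed the test in neither line.

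Of the 7 enzymes that modify elongation factors, 3 were lower in each line, which is 42.9%, against 20.1% of all genes in HepG2 and 36.4% in Huh7. EEF2K (ENSG00000103319, chr16:22206278-22288738, plus strand) phosphorylates and inactivates eEF2. HepG2 cells with UBL5 siRNA had 47.4, 41.04 and 40.8 CPM of EEF2K, against 84.9, 94.5 and 76.2 CPM in those with Ctrl-siRNA. Huh7 cells had 68.6, 64.8 and 65.4 CPM with UBL5 siRNA, against 85.5, 80.6 and 72.4 CPM with Ctrl-siRNA. The groups did not overlap in either line, and EEF2K fell by 0.98 on the log2 scale in HepG2 (SE 0.11, adjusted p = 0.00038) and by 0.26 in Huh7 (SE 0.06, adjusted p = 0.0029). The libraries of HepG2 held 5.56, 5.18 and 5.03 CPM of EEF1AKMT3 with UBL5 siRNA and 9.23, 9.67 and 9.21 CPM with Ctrl-siRNA. For Huh7, EEF1AKMT3 stood at 3.40, 3.39 and 3.95 CPM with UBL5 siRNA and 7.36, 8.16 and 7.62 CPM with Ctrl-siRNA. EEF1AKMT3, a lysine methyltransferase of eEF1A, fell by 0.83 in HepG2 and by 1.10 in Huh7, again without overlap. EEF2KMT, which methylates eEF2, fell in HepG2 by 0.79, a call lost when 1 library was left out, and EEF1AKMT4 fell in Huh7 by 0.61, although it shares 49.2% of its exon bases with another gene. EEF1AKNMT was not called in HepG2 but was lower in the paired fit, at an adjusted p of 0.0496.

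The second question was whether the lines responded differently. By the test of the difference, the log2 fold change was higher in HepG2 for 6 of 59 members, which is 10.2% against 9.88% of the 15668 genes tested, and lower in HepG2 for 10, which is 16.9% against 11.7%. Without the UBL5 siRNA replicate 1 or replicate 2 of Huh7, 3 rather than 6 were higher in HepG2, and the share of all genes in those fits is not given. EIF2B3, EIF2D and EIF4EBP2 were higher and EEF2K, EIF1AD, EIF2B4, EIF3A, EIF3B, EIF4B and EIF4ENIF1 lower whichever library was left out.

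The members with the smallest adjusted p were EIF3B, EIF2B4, EIF4ENIF1, EIF4EBP2, EEF2K and EIF4B. EIF3B had a difference (HepG2 minus Huh7) of -0.64 ± 0.07 (SE, adjusted p = 1e-04), and the EIF3B groups overlapped in HepG2 alone. The difference was -0.68 ± 0.11 for EIF4ENIF1 (adjusted p = 0.00099) and 0.45 ± 0.07 for EIF4EBP2 (adjusted p = 0.0011). For EEF2K it was -0.69 ± 0.13 (adjusted p = 0.0025), from a deeper fall in HepG2, and for EIF4B it was -0.42 ± 0.08 (adjusted p = 0.0035), from a larger rise in Huh7. EIF2D fell more in Huh7, with a difference of 0.55 ± 0.13 (adjusted p = 0.01). EIF4A1, EIF4E2, EIF5B, EIF3F and EEF2 had differences of -0.27, 0.04, -0.13, -0.09 and 0.04, with SEs of 0.25, 0.11, 0.10, 0.11 and 0.12. None of these passed the test, which does not show that the lines responded alike.

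**Figure D4:**
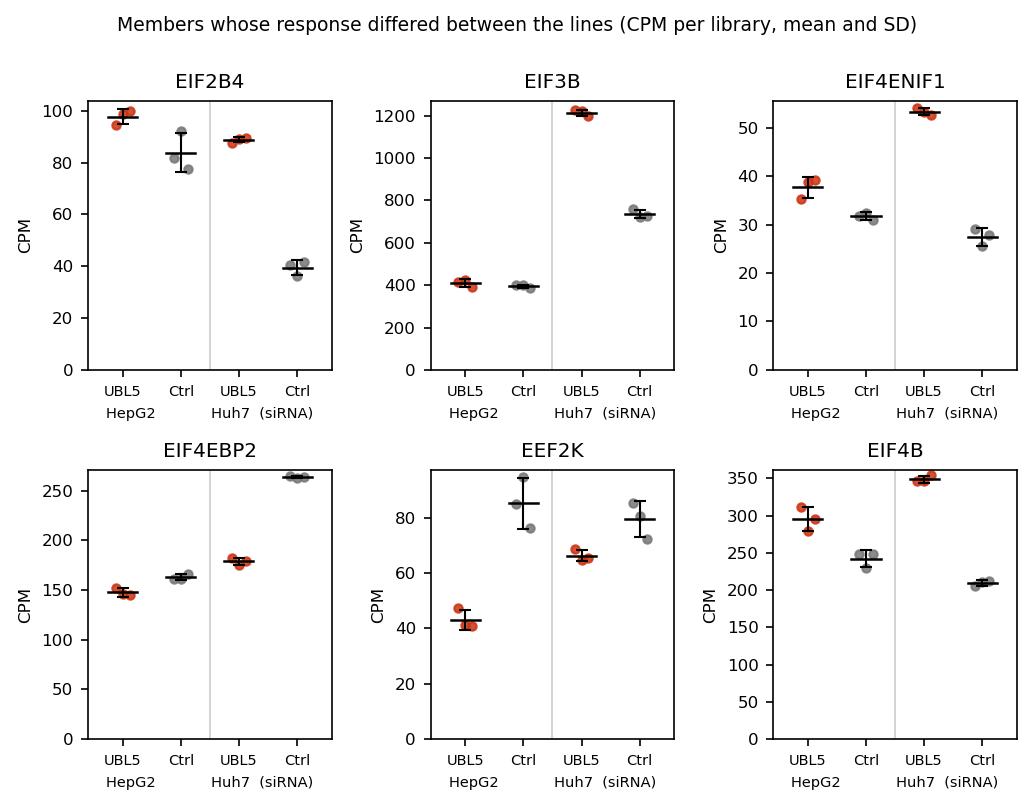
The plot gives CPM (scaled within each line) of the 6 members with the smallest adjusted p for the difference between lines, per library, with UBL5 siRNA in red left of Ctrl-siRNA in grey and the mean and SD in black (n = 3). The UBL5 siRNA points of EIF2B4, EIF4ENIF1 and EIF4B lie further above the controls in Huh7 than in HepG2, those of EIF3B lie above the controls in Huh7 and overlap them in HepG2, those of EIF4EBP2 lie further below them in Huh7, and those of EEF2K lie further below them in HepG2.

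The third comparison set control HepG2 against control Huh7, in values scaled over all 12 libraries. The level was higher in HepG2 for 30 of 59 members, which is 50.8% against 31.7% of genes tested, and lower for 14, which is 23.7% against 32%. Line and any batch of the line cannot be told apart. EEF1A2 had 1.15, 1.31 and 0.350 CPM in HepG2, against 32.1, 35.9 and 38.1 CPM in Huh7, a log2 difference of -5.27 ± 0.27 (SE, adjusted p = 9.4e-10). Its paralog EEF1A1 had 662, 673 and 653 CPM in HepG2, against 519, 536 and 516 CPM in Huh7. EEF1E1 had 42.7, 41.0 and 37.9 CPM in HepG2 and 11.2, 10.4 and 9.43 CPM in Huh7. None of these 3 genes overlapped between the lines.

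EIF2A had 171, 181 and 220 CPM in control HepG2 and 58.6, 61.0 and 59.4 CPM in control Huh7. EIF2B4 had 84.6, 95.9 and 81.7 CPM in HepG2 and 39.7, 35.6 and 40.3 CPM in Huh7. EIF3B had 414, 415 and 405 CPM in HepG2 and 748, 711 and 702 CPM in Huh7. All 3 therefore differed without overlap, as did EIF3J, with log2 differences of 1.68, 1.18, -0.81 and 0.83 (HepG2 over Huh7). EIF4EBP1 and EIF4EBP2 were lower in HepG2 by 1.10 and 0.60 on the log2 scale, and EIF5A, EIF5A2 and EIF4A2 did not pass the test.

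The members with a pyrimidine-run start can be set beside the other members that have a RefSeq promoter. Members without such an entry, EIF3A and EIF3E among them, are in neither set, and the 12 with the run hold both near copies EIF2S3 and EIF2S3B. Of the 12, 7 were higher and 2 lower in HepG2 (58.3% and 16.7%, against 16.5% and 20.1% of all genes) and 9 were higher and 2 lower in Huh7 (75% and 16.7%, against 34.9% and 36.4%). Of the matched members without such a start, 5 of 34 were higher and 5 lower in HepG2, and 17 of 35 were higher and 9 lower in Huh7. The medians were 0.30 and 0.27 on the log2 scale with the run, in HepG2 and Huh7, and 0.07 and 0.13 without it. The 2 that fell in both lines were EIF2D and EIF3K, whose starts are among those printed above. These counts are a description without a test. The Pearson correlation of the number of canonical exons with the fold change across members was -0.17 in HepG2 (n = 59) and 0.05 in Huh7 (n = 60), beside -0.10 and -0.08 over protein-coding genes.

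**Figure D5:**
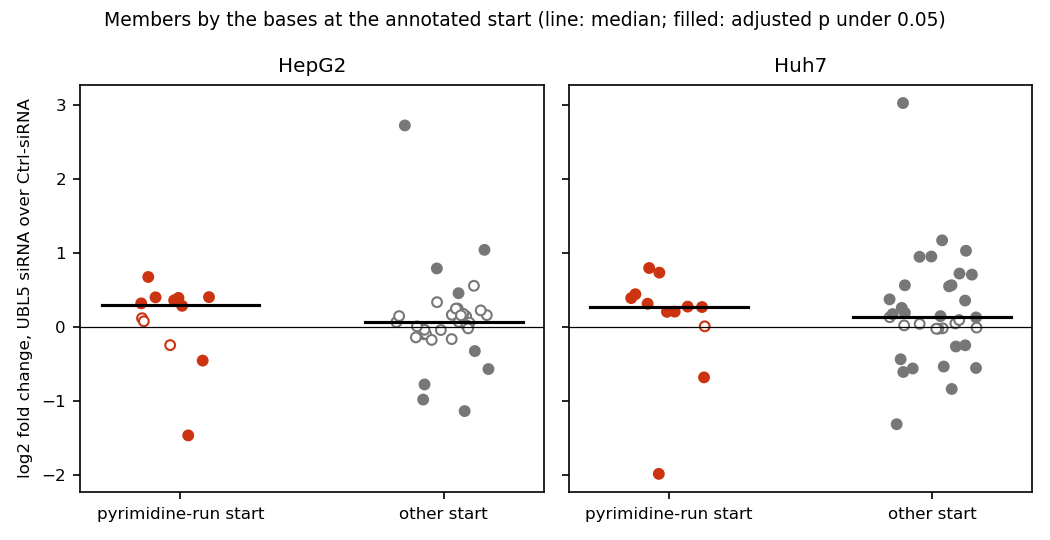
The plot gives the log2 fold change (UBL5 siRNA over Ctrl-siRNA) of members with a pyrimidine-run start (red) and with another start (grey) in each line, with the median as a line and filled points for an adjusted p under 0.05. The medians are 0.30 and 0.07 in HepG2 and 0.27 and 0.13 in Huh7, and the lowest red point in each line is EIF2D.

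Some members could share reads with another locus. Of the 60, 20 have a listed pseudogene and 3 have over 20% of exon bases in common with a neighbour on the same strand. Counted on either strand, EEF1D, EEF2KMT and EIF2B2 also pass 20%, and the strand setting of the counts is not given. The 39 members with neither a listed pseudogene nor such same-strand overlap still hold EEF2KMT and EIF2B2. They also hold the near copies EIF2S3 and EIF2S3B, and EIF5A and EIF5AL1, so this set is not free of possible shared reads. Copies of a member that are not listed were not searched for, EIF3C included. Among these 39, 8 of 38 were higher and 7 lower in HepG2. These shares of 21.1% and 18.4% lie near the 16.5% and 20.1% of all genes, whereas over all members 25.4% were higher and 15.3% lower. In Huh7 22 of 39 were higher and 10 lower, or 56.4% and 25.6%, against 34.9% and 36.4% of all genes.

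Of 40 other genes of translation, 13 were higher and 5 lower in HepG2 (32.5% and 12.5%, against 16.5% and 20.1% of all genes), and 20 were higher and 13 lower in Huh7 (50% and 32.5%, against 34.9% and 36.4%). Termination and ribosome rescue gave 3 of 5 higher in each line (60%, against 16.5% of all genes in HepG2 and 34.9% in Huh7). ETF1 had 300, 309 and 331 CPM with UBL5 siRNA in HepG2, against 178, 174 and 174 CPM with Ctrl-siRNA. In Huh7 it had 333, 327 and 329 CPM with UBL5 siRNA and 137, 126 and 132 CPM with Ctrl-siRNA. ETF1, the release factor that reads stop codons, did not overlap between groups, and rose by 0.84 ± 0.08 in HepG2 and by 1.32 ± 0.05 in Huh7 on the log2 scale (SE), a difference of -0.46 ± 0.08 (adjusted p = 0.0019). HBS1L, which acts in the rescue of stalled ribosomes, rose by 0.32 and 0.36. LARP1, the binder of pyrimidine-run mRNAs, rose by 0.36 in HepG2 and by 0.89 in Huh7, and the helicase DDX3X by 0.49 and 0.74. MTOR, the kinase named with LARP1 above, was called lower in each line, at -0.86 for HepG2 and -0.76 for Huh7 on the log2 scale. It was not among the genes named by rule, and others of its list went the other way. RPTOR was called higher in each line, by 0.49 and 0.63. RPS6KB2 rose in Huh7 by 0.64 and did not pass the test in HepG2, and RPS6KB1 passed it in neither line.

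Of the 6 eIF2 kinases and phosphatase subunits, 3 were lower in HepG2 (50%, against 20.1% of all genes), and 2 were higher and 4 lower in Huh7 (33.3% and 66.7%, against 34.9% and 36.4%). In HepG2, EIF2AK3 measured 37.1, 37.4 and 40.1 CPM with UBL5 siRNA and 44.3, 49.8 and 50.97 CPM with Ctrl-siRNA. The Huh7 values of EIF2AK3 were 52.9, 48.8 and 51.3 CPM with UBL5 siRNA, against 67.7, 67.6 and 68.9 CPM with Ctrl-siRNA. EIF2AK3 (PERK), the eIF2 kinase of the ER, was lower without overlap in both lines, by a log2 fold change of -0.34 ± 0.10 in HepG2 (SE, adjusted p = 0.027) and of -0.42 ± 0.05 in Huh7 (SE, adjusted p = 2.5e-05). EIF2AK2 (PKR), the kinase activated by double-stranded RNA, rose in Huh7 by 0.54 on the log2 scale and had a log2 fold change of 0.26 in HepG2, where it did not pass the test. Of the 10 genes for hypusine, diphthamide and selenocysteine, 3 were higher in HepG2 (30%, against 16.5% of all genes). In Huh7 5 were higher and 4 lower (50% and 40%, against 34.9% and 36.4%), so the share lower lies near that of all genes. Among those that make diphthamide on eEF2, DPH7 rose by 0.51 in each line, and DPH1 rose by 0.62 in Huh7 and had a log2 fold change of -0.13 in HepG2. DPH2 also rose in Huh7, by 0.53, while DPH3, DPH5 and DNAJC24 fell there by 0.44, 0.30 and 0.66 on the log2 scale.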

How the data were processed

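Poly-A RNA of both hepatoma lines (3 libraries with UBL5 siRNA and 3 with Ctrl-siRNA each) was sequenced with a stranded kit. Alignment by the authors used STAR 2.7.6a and GRCh38, and they deposited raw counts per gene from featureCounts, whose version, annotation and strand setting are not given in the sources used here. The deposited columns of the authors' DESeq2 1.30.0 comparison (mean, fold change, error, statistic and p-values) were not used, and 0 columns were left unmatched. Total counts per library were 19983681 to 29744471, and for genes with many counts the spread between libraries sets the precision.

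Low counts were removed by filterByExpr (at least 10 per library by its rule and 15 in total), TMM factors were applied, and genes were tested with the quasi-likelihood test of edgeR 4.0.16 (R 4.3.3), with Benjamini-Hochberg adjustment over all genes tested and a threshold of 0.05. Each line was fitted alone, and the difference between lines and the control lines were fitted over all 12 libraries on genes listed for both. CPM values are TMM-scaled. DESeq2 1.42.0, other scaling, no filter, a replicate block and leaving out libraries were alternatives. The steps were tested on simulated data. Tables and plots used Python 3.11.15, pandas 2.3.3 and matplotlib 3.10.9.

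Values per library are given for the 3 members of each role group whose adjusted p was smallest in either line, the 6 members with the smallest adjusted p between lines and the 6 between control lines, the paralog sets, UBL5, and 2 genes per list of other translation genes. A few of these are summarised by fold change. Other members with values per library, EIF4E2 and EIF4E3 among them, were chosen after their values were seen. The members and lists were chosen with earlier results of these data known. In HepG2 the deviations of libraries with the same number correlated at 0.41, 0.32 and 0.34 over 9405 genes with a mean of at least 10 CPM, so the numbers were taken to pair them. The pairing comes from these correlations and not from a label. The main fits did not use it, so their SEs, adjusted p-values and calls are unpaired, and only the replicate block used the numbers. In the deposited column names, the HepG2 libraries numbered 3 lack the S and number that all others carry, and the reason is not stated. Exons and coordinates are from GENCODE 44 (GRCh38), and start sequences are from RefSeq (GRCh38.p14), which held 47 of the 60 members.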

Additional observations from a re-analysis of the deposited data

Results flagged for a closer look

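The response to UBL5 siRNA differed between the lines for 13 of the 30 members named by rule, by the interaction test of edgeR over 12 libraries. Of the 30, 6 were named for the smallest adjusted p in this same test, and each of them was also named by role group. Members named by role group were chosen for a small adjusted p within a line, so the count may be raised by that choice. Over all 59 members 10.2% were higher and 16.9% lower in HepG2, against 9.88% and 11.7% of all genes. Values are the log2 fold change in HepG2 minus that in Huh7. Higher in HepG2 were EEF1AKMT4 at 0.80, EIF2D at 0.55, EIF4EBP2 at 0.45, EIF1B at 0.34 and EEF1A1 at 0.34. Lower in HepG2 were EIF2B4 at -0.92, EEF2K at -0.69, EIF4ENIF1 at -0.68, EIF3B at -0.64, EIF1AD at -0.62, EIF4A2 at -0.42, EIF4B at -0.42 and EIF3J at -0.32. The adjusted p was closest to the threshold for EIF4A2 (0.0446) and EEF1AKMT4 (0.0405). The same test called EIF2B3 (0.47), EIF3A (-0.38) and EIF4G1 (-0.37) among the other members. Reads of EEF1AKMT4 may be shared with an overlapping gene, and those of EEF1A1, EIF3J, EIF4A2 and EIF4B with listed pseudogenes.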

How the results depend on the processing

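Leaving out each library in turn gave 9 to 15 members higher and 6 to 10 lower in HepG2, 32 to 35 higher and 12 lower in Huh7, 3 to 7 higher and 7 to 11 lower for the difference, and 26 to 30 higher and 11 to 15 lower between control lines. The low counts were 9 without the HepG2 Ctrl-siRNA replicate 1 or replicate 2, and 3 without the Huh7 UBL5 siRNA replicate 1 or replicate 2. With DESeq2, 18 members were higher and 9 lower in HepG2 and 34 and 12 in Huh7. The fit over all 12 libraries gave 20 and 11 in HepG2 and 27 and 11 in Huh7. Other scaling and no filter moved no count by more than 1.5 times. With both HepG2 libraries numbered 3 left out, an alternative chosen after seeing the data, 14 were higher and 10 lower in HepG2. For all these fits, and for the replicate block below, the shares of all genes called are not given. A change in the members and a change in calls over all genes therefore cannot be told apart.

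With the replicate block, 15 members were higher and 11 lower in HepG2, 34 and 12 in Huh7, and 7 and 14 for the difference. In Huh7 the libraries with the same number correlated at 0.44, 0.062 and 0.57, so there the number is not taken as a pairing. For the difference the block added EIF5, EIF3E, EIF3M, EIF4E and EIF1. That fit blocked the Huh7 libraries by number too, so its counts and these added calls rest in part on a pairing not taken as given.

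Some values that had not passed the test changed sign. With both HepG2 libraries numbered 3 left out, the log2 fold change of EEF1A2 in HepG2 was -0.16, the differences between lines were -0.27 for EIF5AL1 and 0.095 for UBL5, and EIF3K stood at -0.042 between control lines. In the fit over all 12 libraries EEF1A1 in Huh7 was at -0.015. Between control lines EIF3F was at -0.0063 with median-ratio size factors and -0.0070 with DESeq2. Leaving out 1 library gave -0.014 to 0.37 for EEF1AKMT4 and -0.0023 to 0.19 for EIF1AD in HepG2, and -0.0026 to 0.036 for EEF1A1, -0.0099 to 0.11 for EEF1E1 and -0.11 to 0.060 for EIF1 in Huh7. For the difference it gave -0.48 to 0.27 for EEF1A2, -0.048 to 0.12 for EEF2, -0.20 to 0.033 for EIF5A, -0.17 to 0.18 for EIF5AL1 and -0.54 to 0.083 for UBL5, and between control lines -0.042 to 0.11 for EIF3K and -0.028 to 0.20 for EIF5A. The cause was not tested.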
